A study of Mus musculus with 38 samples.

Results

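HGS2 omental tumors were profiled 1 day after the last of 3 weekly doses of chemotherapy, a stage called TP1. The rule took the 3 treated and the 3 control tumors of that stage, which are 6 of the 38 RNA-seq libraries of the series and 6 of its 17 HGS2 tumors. HGS2 is a syngeneic transplantable mouse model of high-grade serous ovarian cancer (HGSOC), described by the study as weakly responsive, and its cells came from a female C57BL/6 mouse. They were injected into the peritoneum of young adult female C57BL/6J mice, and dosing began 49 days later. Treated mice received carboplatin (20 mg/kg) with paclitaxel (10 mg/kg), and control mice received vehicle. Each tumor came from a separate mouse, and the tumors of both groups all rest on the same cell line. The genotype of the cells is not given in the sources used here. The comparison asks how the tumor transcriptome stood 1 day after dosing, relative to the spread between tumors. Responses at HGS2 TP2 (7 days after the last dose, 3 treated and 4 control tumors) and at TP1 in the chemo-sensitive 60577 model (3 treated and 3 control tumors grown in FvB mice) are used only to show where the HGS2 TP1 response differed. In the 60577 model dosing began 3 weeks after injection. Cell line, mouse strain and the day dosing began thus differ together between the models and cannot be told apart.

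Carboplatin forms platinum adducts and crosslinks in DNA, and paclitaxel binds tubulin and stabilizes microtubules, so that dividing cells arrest in mitosis. DNA damage stabilizes the transcription factor p53, which switches on cell cycle inhibitors such as Cdkn1a (p21), its own inhibitor Mdm2, and death genes such as Bax and Fas. Cells that leave the cycle lower the replication-dependent histone, replication and mitosis genes. The omentum is a fat-rich peritoneal tissue with lymphoid aggregates, next to the pancreas, so a bulk tumor sample holds malignant cells, fibroblasts, macrophages, lymphocytes, fat and sometimes neighboring tissue. In bulk RNA, fewer cells of a type and less RNA per cell cannot be told apart.

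No gene passed the threshold between treated and control HGS2 tumors at TP1. Of the 16241 genes tested with edgeR's quasi-likelihood test, 0 (0%) had a Benjamini-Hochberg adjusted p below 0.05 with an absolute log2 fold change above 1, and the smallest adjusted p was 0.999. At an unadjusted p below 0.05 there were 413 genes (2.54%), 181 higher and 232 lower in the treated tumors. That share is smaller than the one this limit gives by chance. Leaving out 1 tumor moved that count to 182 without treated 3, 648 (3.99%) without control 3, 859 without treated 1 and 969 without control 2, and limma-voom with sample weights gave 1909. limma-voom and the 6 fits that each left out 1 tumor also called 0 genes. The DESeq2 Wald test called 1 gene, the gene model Gm45837, which was lower and is named here after its values were seen. The middle of the distribution of log2 fold changes was narrow, with quartiles at -0.18 and 0.21, and the median standard error of a gene was 0.30 log2 units. The values below are therefore descriptions of single genes and lists, given with their spread, and none of the HGS2 TP1 fold changes passed the threshold.

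Control 3 stood apart from the other 5 tumors before any comparison of groups. Pancreatic acinar genes, which encode digestive enzymes, took 8.21% of its counts. In the other tumors their share lay between 0.00119% and 0.282%, the highest of these in treated 1. The pancreatic elastase gene Cela2a stood at 12605 CPM (the TMM-scaled unit of count per library size used throughout) in control 3 and at no more than 341 CPM elsewhere. The 7SL genes Rn7s1 and Rn7s2, which encode the abundant RNA of the signal recognition particle, took 13.0% of the counts of control 3 and 3.49% to 7.63% of the counts of the others. Control 3 also had the lowest summed level of the mitosis list, 491 CPM, against 618 to 2615 CPM in the other 5 tumors. Red cell genes summed to 419 CPM in it and to 23.3 to 57.6 CPM elsewhere. With the level of pancreatic acinar genes or of 7SL added to the edgeR fit as a covariate, 0 genes were called. Those fits had 512 and 560 genes at an unadjusted p below 0.05. The part of this tissue admixture in single results was not tested further, and values without control 3 are given beside the main lists. The total expected count per tumor ranged from 25903219 to 34334182, so depth differed little between tumors.

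**Figure D1:**
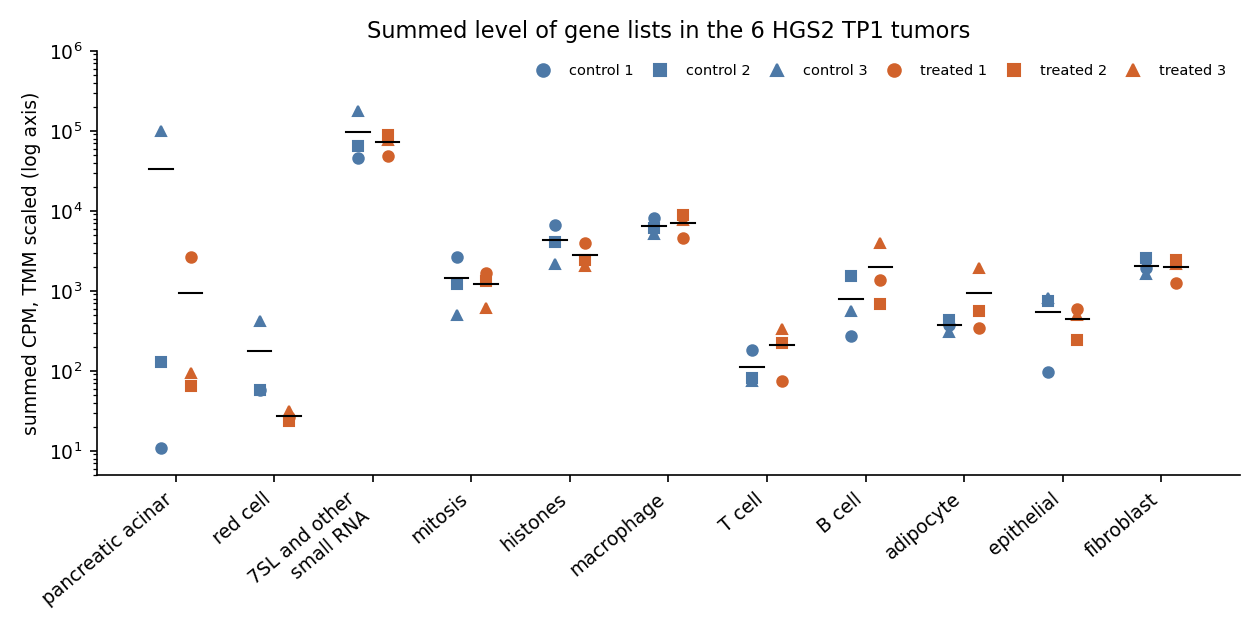
Summed level of 11 gene lists in each of the 6 HGS2 TP1 tumors, in TMM-scaled CPM on a log axis, with a short line at the mean of the 3 tumors of a group. Control 3 (blue triangle) sits at 99602 CPM for pancreatic acinar genes, whereas the other tumors lie between 10.8 and 2668 CPM, and treated 3 (orange triangle) is the highest tumor for B cell (3957 CPM) and adipocyte (1934 CPM) genes.

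The groups did not separate as whole transcriptomes. Each pair of tumors was given a distance, 1 less the Pearson correlation of their log2 CPM over the tested genes. It averaged 0.071 between a treated and a control tumor and 0.08 within a group. The difference of -0.00891 was the lowest of the 10 that regrouping the tumors 3 against 3 can give (p = 1 by a one-sided exact permutation test that cannot go below 0.1). The closest pair of all was control 2 with treated 1, at 0.0307, and the next closest was control 2 with treated 2, at 0.041. The mean distance to the other 5 tumors was 0.111 for control 3 and 0.0572 to 0.0842 for the rest. Without control 3 the difference was -0.00438 (exact permutation p = 0.8). It turned positive without control 1 (0.00477, exact permutation p = 0.4) and without control 2 (0.01, exact permutation p = 0.3).

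**Figure D2:**
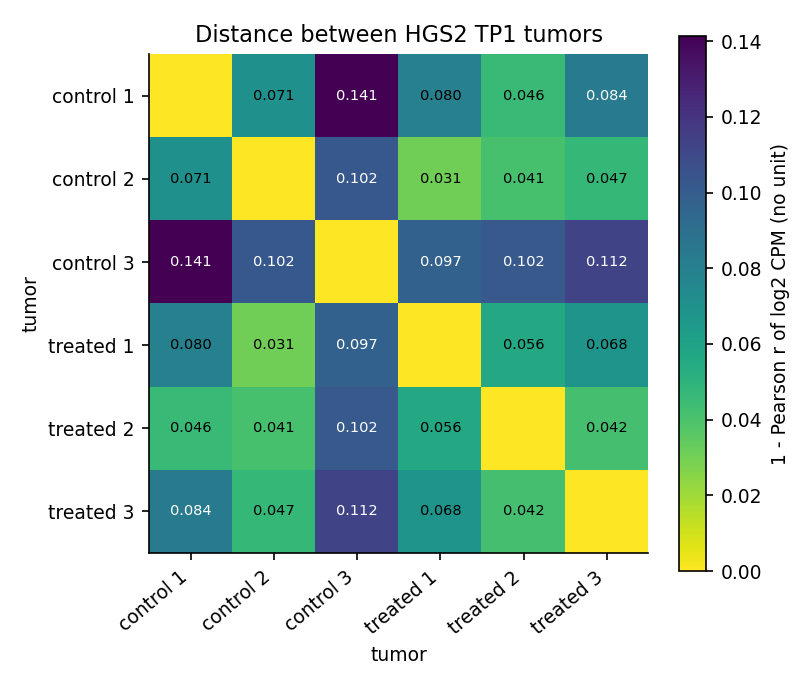
Distance (1 minus Pearson's r of log2 CPM, no unit) between each pair of the 6 HGS2 TP1 tumors, printed in each cell and shown from 0 (yellow) to 0.141 (dark). Every distance to control 3 is 0.0973 or more, and the smallest value, 0.0307, joins a control and a treated tumor.

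HGS2 tumors of 1 group differed more from each other than 60577 tumors did. The median SD of log2 CPM over genes was 0.39 in HGS2 TP1 control tumors (n = 3) and 0.30 in HGS2 TP1 treated tumors (n = 3). In 60577 TP1 it was 0.13 in control and 0.17 in treated tumors. Without control 3, the 2 remaining HGS2 controls gave a median SD of 0.29. At HGS2 TP2 the medians were 0.29 in control and 0.24 in treated tumors.

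Genes of the p53 pathway came first because carboplatin damages DNA, and all 40 listed p53 target genes were tested. Groups did not overlap in 5.27% of all genes tested, where 10% would by chance in groups of 3. In 7 of the 40 (17.5%) every treated tumor was above every control tumor, against 2.96% of all genes tested, and in 0 of the 40 was every treated tumor below, against 2.31% of all genes. At an unadjusted p below 0.05, 5 list members were higher and 1 was lower, beside 1.11% and 1.43% of all genes. The log2 fold change was positive in 36 of the 40 (26 to 33 when 1 tumor was left out), with a median of 0.19, whereas the median over all genes was 0.00. Without control 3 the median was 0.29, 12 of the 40 lay wholly above the controls (10.8% of all genes did so then), and 5 members were higher at an unadjusted p below 0.05 with 0 lower. Summed over the list, the 3 controls lay at 1166, 1326 and 1484 CPM and the 3 treated tumors at 1459.5, 1472 and 1599 CPM, so the groups overlapped, with control 3 above treated 1 and 2. Without TMM scaling the sums were 1286, 1320 and 1224 against 1545, 1526 and 1740 CPM and did not overlap. Control 3, the tumor with the large acinar and 7SL share, had the lowest TMM factor of these tumors, 0.83. Its sum was therefore lower without scaling. The list was chosen with earlier results of these data known.

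Mdm2, the ubiquitin ligase that degrades p53, had the tightest values. It stood at 48.5, 39.8 and 48.5 CPM in control 1 to 3 and at 65.6, 66.1 and 63.9 CPM in treated 1 to 3. The treated tumors were almost level with each other and all were above the highest control. The log2 fold change was 0.52 ± 0.11 (SE, unadjusted p = 0.000506), and without control 3 it was 0.54.

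Cdkn1a, the cyclin-dependent kinase inhibitor that halts the cycle after DNA damage, showed the largest fold of the list. Control tumors held 41.3, 20.2 and 24.7 CPM and treated tumors 64.3, 90.5 and 79.3 CPM. The lowest treated tumor was above the highest control, and control 1 was the control nearest to the treated group. The log2 fold change was 1.44 ± 0.47 (SE, unadjusted p = 0.00813), and 1.32 without control 3.

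Cell cycle and spindle targets were next. Ccng1, which encodes cyclin G1, stood at 62.6, 87.0 and 78.4 CPM in controls and 114, 94.6 and 117 CPM in treated tumors, a log2 fold change of 0.51 ± 0.18 (SE). Psrc1, which encodes a microtubule-binding protein of the spindle, stood at 5.13, 3.72 and 2.62 CPM in controls and 8.15, 5.97 and 6.63 CPM in treated tumors, a log2 fold change of 0.85 ± 0.26 (SE). Neither gene overlapped between the groups.

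Death and metabolic targets came next. Fas, a death receptor, stood at 4.97, 9.31 and 5.15 CPM in controls and 10.9, 10.5 and 13.3 CPM in treated tumors. Zmat3, an RNA-binding tumor suppressor, stood at 63.4, 61.9 and 55.1 against 98.8, 66.5 and 71.8 CPM. Dglucy, a mitochondrial glutamate-metabolizing enzyme, stood at 10.8, 10.7 and 11.0 against 11.6, 16.6 and 17.6 CPM. These 3 genes also did not overlap, although for Zmat3 and Dglucy the lowest treated tumor was only just above the highest control.

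Other death genes overlapped. Bax, which opens the outer mitochondrial membrane, stood at 35.1, 25.6 and 28.1 CPM in controls and 30.8, 44.1 and 42.7 CPM in treated tumors, with treated 1 inside the control range. Bbc3 (PUMA) stood at 6.26, 6.94 and 9.27 against 7.90, 10.8 and 13.3 CPM. Eda2r, a death receptor of the TNF receptor family, held 2.67, 2.34 and 3.00 CPM in controls and 1.35, 3.69 and 9.88 CPM in treated tumors, which spread on both sides of the controls.

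The 1 list member lower at an unadjusted p below 0.05 was Cdkn2a, which encodes the cell cycle inhibitor p16 and the Mdm2 inhibitor p19ARF. As an inhibitor of Mdm2, p19ARF acts upstream of p53, so Cdkn2a is a pathway member and not a gene that p53 switches on. It stood at 126, 91.3 and 172 CPM in controls and 99.1, 56.2 and 49.1 CPM in treated tumors, a log2 fold change of -0.93 ± 0.43 (SE). Treated 1 lay above control 2, and without control 3 the log2 fold change was -0.69.

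**Figure D3:**
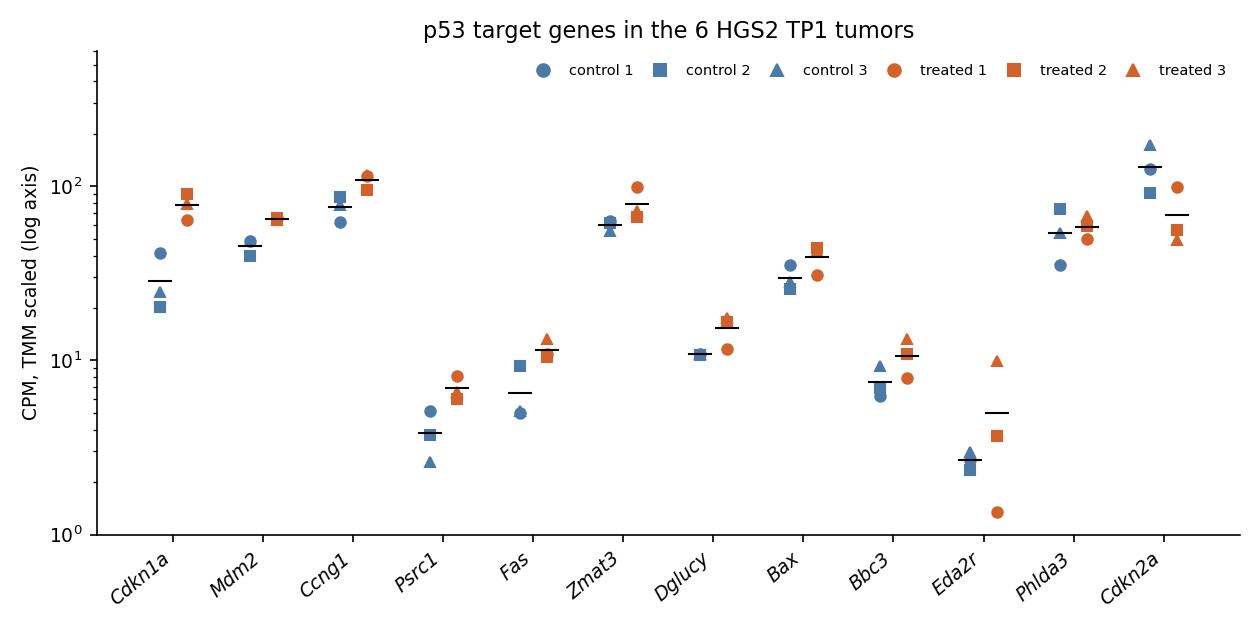
CPM (TMM scaled, log axis) of 12 genes of the p53 list in each of the 6 HGS2 TP1 tumors, with a short line at the mean of each group. The first 7 genes from the left have all 3 treated tumors (orange) above all 3 controls (blue), Bax, Bbc3, Eda2r and Phlda3 overlap, and Cdkn2a has its highest values in controls.

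The DNA before the start of these genes is shown because the members that stood apart are known p53 targets. RefSeq promoters (GRCm38.p6) matched 33 of the 40 list genes. The 250 bases before each start were searched on the given strand for exact p53 half-sites, a motif that reads the same way on both strands, and a pair was 2 half-sites with up to 13 bases between them. A half-site was present in 10 of the 33 list genes (30.3%) and in 8.2% of all genes searched. The list members were picked as p53 targets, so the higher share is not a finding of the tumor data. Of 32851 promoters 0.0639% held a pair, and that of Cdkn1a was the only one among list genes. The 4 genes shown are the list members that had a half-site and were higher at an unadjusted p below 0.05, with half-sites in capitals and the sequence read along the gene's strand:
Cdkn1a, chr17:29090896-29090947, plus strand: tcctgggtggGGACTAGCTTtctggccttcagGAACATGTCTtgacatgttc
Mdm2, chr10:117710925-117710954, minus strand: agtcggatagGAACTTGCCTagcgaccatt
Ccng1, chr11:40755452-40755481, minus strand: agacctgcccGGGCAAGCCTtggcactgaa
Bax, chr7:45467080-45467109, minus strand: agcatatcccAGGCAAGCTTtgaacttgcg
The Cdkn1a half-sites began 73 and 51 bases before the start of that transcript, with 12 bases between them. The single half-sites of Mdm2, Ccng1 and Bax began 186, 185 and 201 bases before the start. Bax, although shown, overlapped between the groups. Among genes not shown whose groups did not overlap, Psrc1, Fas and Dglucy held no exact half-site in this window. Zmat3 was not among the genes matched. Aen, Ckap2, Ei24, Gadd45a, Polk and Sesn1 also held a half-site. They overlapped between the groups and were not past an unadjusted p of 0.05. A match is a description of sequence and does not show binding.

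RNA of the p53 gene, Trp53, stood higher in the tumors than in cultured HGS2 cells. Trp53, named here after its values were seen, stood at 29.8, 18.3 and 11.4 CPM in control and 17.5, 28.4 and 35.6 CPM in treated tumors without TMM scaling, and at 0.98 and 1.17 CPM in the 2 HGS2 cell line libraries, which were deposited in a separate table. Every tumor was thus above both cell line libraries. Mdm2 stood at 46.0 and 58.2 CPM and Cdkn1a at 4.71 and 8.64 CPM in the same cell line libraries. The cell line libraries were not tested against the tumors. Which cells of a tumor carried the values of the p53 list was not tested.

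The p53 list was not tested as a whole against the other time point or model. At HGS2 TP2, Cdkn1a had a log2 fold change of 1.36 (adjusted p not below the threshold for any gene there, smallest adjusted p in edgeR 0.588) and Mdm2 of 0.38. The list median was 0.19 at both HGS2 time points. In 60577 TP1 the list median was 0.44, and 16 of 40 members were called higher and 1 lower, where 6.24% of all genes were called higher. There Cdkn1a rose by 3.48 log2 units and Mdm2 by 1.34 (adjusted p = 0.000508 and 1.3e-05, edgeR). The difference between the models was -2.08 ± 0.80 (SE) for Cdkn1a, with an adjusted p of 0.159, and -0.85 ± 0.21 for Mdm2, with an adjusted p of 0.0361 and a size below the limit of 1. Rap2b, a small GTPase, and Dcxr, a carbonyl reductase, were the list members past both limits, with differences of -1.35 ± 0.22 and -1.82 ± 0.39 (edgeR, adjusted p = 0.00404 and 0.0164). The Dcxr call was lost without treated 1 (adjusted p 0.00999 to 0.0599 over the alternatives).

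Replication-dependent histone genes had the lowest median of the growth lists. Of 70 listed, 64 were tested, and 62 of them had a negative log2 fold change with a median of -0.67. At an unadjusted p below 0.05, 6 were lower and 0 higher, beside 1.43% and 1.11% of all genes. In 2 of the 64 every treated tumor was below every control (3.12%, beside 2.31% of all genes), and in 1 every treated tumor was above. Summed, they stood at 6700.1, 4103 and 2142 CPM in controls and 3969.8, 2407 and 2062 CPM in treated tumors. Treated 3 and control 3 were the lowest of the 6 tumors and controls 1 and 2 held 2 of the 3 highest values, so the groups overlapped. Without control 3 the median was -1.03, 56 of 64 genes were lower at an unadjusted p below 0.05 and 46 lay wholly below the controls, beside 2.64% and 7.86% of all genes. When 1 tumor was left out, the median lay between -1.06 without treated 1 and -0.16 without control 1. Histone genes are near-identical copies, so reads may be split between them by the counting, and their values are not independent.

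Single histone genes differed in whether the groups overlapped. Hist1h2bq, an H2B gene, stood at 67.6, 37.3 and 21.6 CPM in controls and 15, 19.6 and 14.8 CPM in treated tumors, which did not overlap, with a log2 fold change of -1.36 ± 0.57 (SE). Hist1h2bp stood at 13.9, 9.40 and 3.75 against 5.94, 4.38 and 2.55 CPM, where control 3 lay among the treated tumors. In 60577 TP1 the histone median was -2.20 with 59 of 64 called lower, where 3.64% of all genes were called lower. Hist1h2ak, Hist1h4j and Hist3h2a were past both limits in the difference between models, and each lost the call without control 3 and without treated 1.

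Replication and mitosis genes lay within the spread between tumors. All 40 replication genes and all 40 mitosis genes were tested, and 0 were past an unadjusted p of 0.05 in either direction. Log2 fold changes were negative in 35 replication and 38 mitosis genes, with medians of -0.19 and -0.25. Without control 3 the medians were -0.53 and -0.69, and 6 replication and 4 mitosis genes were lower at an unadjusted p below 0.05, beside 2.64% of all genes. Without control 1 the medians were positive, 0.36 and 0.53, with 36 and 40 genes positive, so the direction of both lists turned with the tumor left out. Leaving out treated 3 also gave positive medians, 0.04 and 0.07. Summed mitosis genes stood at 2615, 1213 and 491 CPM in controls and 1656, 1334 and 618 CPM in treated tumors. The controls alone spanned the whole range of the treated tumors.

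The proliferation marker genes Mki67 and Pcna showed the same spread. Mki67 (Ki-67) stood at 347, 195 and 79.5 CPM in controls and 215, 213 and 120 CPM in treated tumors, with a log2 fold change of -0.18 ± 0.43 (SE). Pcna, the sliding clamp of DNA polymerase, whose protein the study stained, stood at 140, 79.2 and 35.5 against 96.4, 77.2 and 59.2 CPM, with a log2 fold change of -0.13 ± 0.37 (SE). The study reports less PCNA staining after chemotherapy in both models at TP2, whereas these values are RNA at TP1. Leaving out control 1 gave 0.41 for Mki67 and 0.43 for Pcna, and leaving out control 3 gave -0.59 and -0.53. In 60577 TP1 Mki67 fell by 1.59 log2 units and Pcna by 1.03 (adjusted p = 0.00304 and 0.035, edgeR). The difference between the models was not past the threshold for either gene (adjusted p = 0.124 and 0.335).

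Among replication genes, Pola2, the B subunit of DNA polymerase alpha, differed between the models. Its log2 fold change was 0.06 in HGS2 and -1.23 in 60577, a difference of 1.29 ± 0.26 (SE, edgeR, adjusted p = 0.0129), and the call was kept under all 8 alternatives (adjusted p 0.0005 to 0.049). Mcm6, a helicase subunit, Cdt1, a licensing factor, and the mitosis genes Cenpf and Ect2 were also past both limits, with differences of 1.74, 1.46, 2.27 and 2.09. Each of these 4 lost the call without control 3 and without treated 1, and Cdt1 and Cenpf also without control 2 and without treated 2. The repair gene Brca2 differed by 1.39 and lost the call without control 2, without control 3 and without treated 1. Of the 40 crosslink repair genes, 0 were past an unadjusted p of 0.05 in HGS2, with a median of 0.01 (-0.16 without control 3).

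Tubulins are the target of paclitaxel, and 20 of 22 listed genes were tested. Of these, 2 were higher and 0 lower at an unadjusted p below 0.05, beside 1.11% and 1.43% of all genes. The median was 0.09 (-0.20 without control 3). Tubb4a, a beta-tubulin most abundant in brain, stood at 0.798, 5.26 and 0.890 CPM in controls and 26.5, 5.91 and 10.9 CPM in treated tumors. The groups did not overlap, but treated 2 was only just above control 2, and the log2 fold change was 2.63 ± 0.91 (SE). Tubb2a stood at 103, 126 and 85.7 CPM in controls and 200, 112 and 208 CPM in treated tumors, so treated 2 lay inside the control range. At TP2 the log2 fold changes were -2.27 for Tubb4a and -0.14 for Tubb2a.

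Drug transport and antioxidant genes held few gaps. Of 11 tested platinum and taxane transporters, 0 were past an unadjusted p of 0.05. The taxane efflux pump gene Abcb1b had a log2 fold change of -0.29 ± 0.40 (SE) and the copper and platinum importer Slc31a1 one of -0.16 ± 0.12. The efflux pump Abcc4 stood at 38.7, 27.1 and 37.3 CPM in controls and 26.0, 38.2 and 28.1 CPM in treated tumors, whereas it rose by 1.10 log2 units in 60577. That difference, -1.28 ± 0.25 (SE, edgeR, adjusted p = 0.00967), was kept under all 8 alternatives. Gsta4, a glutathione transferase, was the 1 member of the 26 NRF2 and metallothionein genes at an unadjusted p below 0.05, where 1.43% of all genes were lower. It stood at 16.3, 21.3 and 33.1 CPM in controls and 10, 6.38 and 12.7 CPM in treated tumors, which did not overlap.

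Immediate early and inflammatory genes included a few that stood apart. Of 26 immediate early genes, 3 were higher and 0 lower at an unadjusted p below 0.05, beside 1.11% and 1.43% of all genes. Nr4a1, an orphan nuclear receptor, stood at 8.93, 10.6 and 7.40 CPM in controls and 12.4, 13.4 and 18.5 CPM in treated tumors. Its relative Nr4a3 stood at 5.52, 3.75 and 2.72 against 8.48, 10.4 and 13.0 CPM. Neither overlapped, with log2 fold changes of 0.71 ± 0.24 and 1.41 ± 0.50 (SE). Without control 3 none of the 26 was past an unadjusted p of 0.05.

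Tnfaip3 (A20), which restrains NF-kB signaling, stood at 28.7, 29.5 and 24.2 CPM in controls and 42.8, 50.5 and 49.3 CPM in treated tumors, which did not overlap, with a log2 fold change of 0.79 ± 0.32 (SE). Tnf stood at 4.79, 2.43 and 2.01 against 4.49, 5.19 and 8.35 CPM. These were the 2 of 38 tested inflammatory genes at an unadjusted p below 0.05, where 1.11% of all genes were higher. The list median was 0.33, and 3 of 38 lay wholly above the controls, beside 2.96% of all genes. The median was 0.13 without control 3, when 0 of the 38 were past that p, 3 lay wholly above and 2 wholly below the controls. The chemokine Cxcl12, which retains leukocytes in tissue, stood at 420, 560 and 248 CPM in controls and 299.9, 483 and 424 CPM in treated tumors. In 60577 it rose by 2.60 log2 units, and the difference of -2.65 ± 0.52 (SE, edgeR, adjusted p = 0.0105) was kept under all 8 alternatives.

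Interferon-stimulated genes lay within the spread at TP1. Of 39 tested, 0 were past an unadjusted p of 0.05 and the median was 0.16 (-0.20 without treated 1 and 0.31 without control 3). At TP2 the median was 1.61 and 37 of 39 were higher at an unadjusted p below 0.05, beside 4.80% of all genes, although 0 genes were called there and 7.59% of all genes were past that p in either direction. Ifit1, an antiviral RNA-binding protein, stood at 31.2, 33.8 and 59.1 CPM in TP1 controls and 85.9, 33.8 and 21.6 CPM in treated tumors, so that treated 1 was the highest and treated 3 the lowest of all 6. The test of the TP1 response minus the TP2 response called 0 of 16241 genes (0%, edgeR, smallest adjusted p 1) and had 278 genes (1.71%) at an unadjusted p below 0.05. limma-voom also called 0. One TP2 control, control 2, held 13.9% of its counts in pancreatic acinar genes.

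The extracellular matrix (ECM) genes Fn1, Col1a1, Vcan, Lox and Loxl2 were not past an unadjusted p of 0.05. Fibronectin, Fn1, stood at 9164, 10276 and 9895 CPM in controls and 7927, 7241 and 6024 CPM in treated tumors. Every treated tumor was below every control, yet the log2 fold change was -0.47 ± 0.36 (SE, unadjusted p = 0.216). Collagen 1A1, Col1a1, stood at 12911, 29374 and 65270 CPM in controls and 19183, 37826 and 14774 CPM in treated tumors, and control 3 was the highest of all 6. Its log2 fold change was -0.58, and 0.17 without control 3. Versican, Vcan, stood at 929, 806 and 372 CPM in controls and 1027, 615 and 509 CPM in treated tumors. The controls spanned most of the range of the treated tumors for both genes. The log2 fold change of Vcan was 0.03, and -0.30 without control 3.

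The collagen crosslinking enzymes Lox and Loxl2 had log2 fold changes of -0.55 ± 0.38 and -0.35 ± 0.49 (SE). Lox stood at 1113, 1088 and 474 CPM in controls and 847, 491 and 487 CPM in treated tumors. Leaving out control 3 gave -0.88 for Lox and -0.70 for Loxl2. The 26 matrix glycoprotein and proteoglycan genes had a median of -0.30, with and without control 3. In 2 of them (7.69%), Fn1 and Postn, every treated tumor was below every control, beside 2.31% of all genes. Their sums did not overlap, at 37030, 39522 and 33718 CPM in controls and 29948, 30730 and 25568 CPM in treated tumors. Without TMM scaling the sums overlapped, with control 3 at 27804 CPM and treated 2 at 31848 CPM. Postn, a matricellular protein of activated fibroblasts, was the 1 gene of this list at an unadjusted p below 0.05, beside 1.43% of all genes lower. It stood at 1399, 589 and 2018 CPM in controls and 384, 561 and 432 CPM in treated tumors, which did not overlap, a log2 fold change of -1.54 ± 0.68 (SE), or -1.14 without control 3. None of the 19 collagen chains was past an unadjusted p of 0.05, with a median of -0.18 (-0.04 without control 3).

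Of 18 fibroblast genes, 2 were lower in the difference between the models, beside 0.997% of all genes. Pdgfra, the receptor for platelet-derived growth factor on fibroblasts, stood at 250, 164 and 373 CPM in HGS2 controls and 86.9, 179 and 168 CPM in treated tumors, with treated 2 and 3 level with control 2. Its log2 fold change was -0.88 in the joint fit of both models and 1.37 in 60577, a difference of -2.25 ± 0.38 (SE, edgeR, adjusted p = 0.00447), kept under all 8 alternatives. Cthrc1, a secreted protein of matrix-producing fibroblasts, stood at 93.0, 95.3 and 107 CPM in controls and 44.8, 56.6 and 42.8 CPM in treated tumors. Those groups did not overlap, and the difference from 60577 was -2.29 ± 0.48 (adjusted p = 0.0146), lost without treated 1 (adjusted p 0.00946 to 0.0513). Of 18 fibroblast markers these were the 2 lower at an unadjusted p below 0.05, beside 1.43% of all genes, and 0 were higher. The list median was -0.03 (-0.25 without control 3).

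Epithelial markers differed widely between tumors of a group. Of 16 tested, 14 had a negative log2 fold change, with a median of -0.81 (-0.15 without control 3). At an unadjusted p below 0.05, 1 was lower, beside 1.43% of all genes. That gene was Cldn3, a tight junction claudin, at 29.6 CPM in control 3 and no more than 1.02 CPM in the other 5 tumors. The keratin gene Krt8 stood at 3.16, 23.9 and 61.2 CPM in controls and 1.68, 1.16 and 25.7 CPM in treated tumors, and Krt19 at 2.89, 108 and 36.2 against 53.5, 12.4 and 68.8 CPM. Both overlapped between the groups. Pax8, a lineage factor of fallopian tube epithelium, was too low to be tested, at no more than 0.18 CPM without TMM scaling in any tumor. Epcam, an adhesion molecule of epithelia, stood at 0.706 to 2.15 CPM in 5 tumors and 21.1 CPM in control 3. In the HGS2 cell line Pax8 and Epcam reached no more than 0.0632 and 0.159 CPM, without TMM scaling. Wt1, a factor of serous ovarian and mesothelial cells, was well expressed, at 22, 171 and 55.7 CPM in controls and 232, 73.3 and 101 CPM in treated tumors. Muc16 (CA125) stood at 3.81, 240 and 9.97 against 84.3, 11.9 and 153 CPM. The tumors of each group thus differed several-fold in markers that the cell line expresses. The summed epithelial list ranged from 96.7 to 813 CPM in controls, highest in control 3, and 243 to 585 CPM in treated tumors. Wt1, Krt19 and Muc16 are also on the mesothelial list. That list summed to 115, 2531 and 335 CPM in controls and 1845, 341 and 920 CPM in treated tumors. How much the share of malignant cells moved the values above was not tested.

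Immune lists spread widely within each group. T cell markers had positive log2 fold changes in all 20 genes tested, with a median of 0.96 (0.71 without control 3). Of these, 1 was past an unadjusted p of 0.05, where 1.11% of all genes were higher. That gene was Icos, a costimulatory receptor of activated T cells, at 2.15, 1.26 and 1.69 CPM in controls and 2.72, 6.04 and 9.81 CPM in treated tumors. Foxp3, which marks regulatory T cells, stood at 2.85, 2.7 and 4.03 against 4.62, 8.23 and 14.1 CPM and also did not overlap. Summed T cell genes stood at 180.1, 81.7 and 74.0 CPM in controls and 74.7, 225 and 329.6 CPM in treated tumors, so treated 1 lay inside the control range.

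B cell markers had the highest median of the immune lists, 2.03 (1.57 without control 3 and -0.07 without treated 3), with 0 of 15 past an unadjusted p of 0.05. Their sum was 274, 1536 and 558 CPM in controls and 1345, 676 and 3957 CPM in treated tumors, with treated 3 the highest of all 6. At TP2 the B cell median was -2.01.

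Macrophage markers had a median of 0.01 (-0.17 without control 3) over 24 genes. At an unadjusted p below 0.05, 0 were higher and 1 lower, beside 1.11% and 1.43% of all genes. The 1 was the hemoglobin scavenger receptor Cd163, which stood at 67.5 CPM in control 3 and at 1.60 to 6.13 CPM in the other 5 tumors. Folr2, a marker of tissue-resident macrophages, stood at 13.0, 18.3 and 11.7 CPM in controls and 14.5, 11.5 and 10.6 CPM in treated tumors. In 60577 it rose by 2.64 log2 units, a difference of -2.89 ± 0.52 (SE, edgeR, adjusted p = 0.00705) that was kept under all 8 alternatives. Trem2, a lipid receptor of macrophages, differed by -1.42 ± 0.35 (adjusted p = 0.0361) and lost the call without control 2 and without treated 1.

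Adipocyte genes had a median of 1.56 (1.83 without control 3 and 0.35 without treated 3), with positive log2 fold changes in all 17 genes. Of the 17, 2 were past an unadjusted p of 0.05, where 1.11% of all genes were higher. Their sum was 370.2, 433 and 308 CPM in controls and 342, 560.4 and 1934 CPM in treated tumors. Plin1, the coat protein of the fat droplet, stood at 4.73, 7.72 and 0 CPM in controls and 8.70, 17.7 and 106 CPM in treated tumors. Adipoq (adiponectin) stood at 56.6 CPM in treated 3 and at 0.0468 to 8.76 CPM in the others. Treated 3 was the highest tumor for both genes.

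Ribosomal protein and cholesterol synthesis genes had negative medians. Of 80 tested ribosomal protein genes 76 had negative log2 fold changes, with a median of -0.21 (-0.28 without control 3), and in 11 of the 80 (13.8%) every treated tumor was below every control, beside 2.31% of all genes. Their sums overlapped, at 24444, 22355 and 22966 CPM in controls and 24583, 16786 and 19486 CPM in treated tumors, with treated 1 the highest of all 6. Rpl5 and Rpl36a were lower at an unadjusted p below 0.05, and Rpl36a stood at 73.3, 63.9 and 65.6 CPM in controls and 58.8, 45.3 and 52.4 CPM in treated tumors. Ribosomal protein genes have many processed pseudogenes, so reads may be shared between copies. Of 22 cholesterol synthesis genes 3 were lower at an unadjusted p below 0.05, beside 1.43% of all genes, and the median was -0.20. The median was 0.00 without control 1 and -0.47 without control 3, when 8 of the 22 were lower at that p and 13 lay wholly below the controls, beside 2.64% and 7.86% of all genes. Fdft1, which encodes squalene synthase, stood at 29.6, 29.4 and 22.4 CPM in controls and 21.2, 19.4 and 16.1 CPM in treated tumors, with log2 fold changes of -0.52 at TP1, -0.64 at TP2 and -0.70 in 60577 TP1, where it was past the adjusted p but under the size limit. Mvk, mevalonate kinase, stood at 15.2, 16.8 and 14.0 against 8.42, 13.0 and 10.2 CPM. Hsd17b7, a sterol synthesis enzyme and the third of these genes, stood at 36.7, 10.5 and 8.90 CPM in controls and 8.23, 13.4 and 5.07 CPM in treated tumors, which overlapped, with a log2 fold change of -1.08 ± 0.49 (SE), or -1.44 without control 3.

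**Figure D4:**
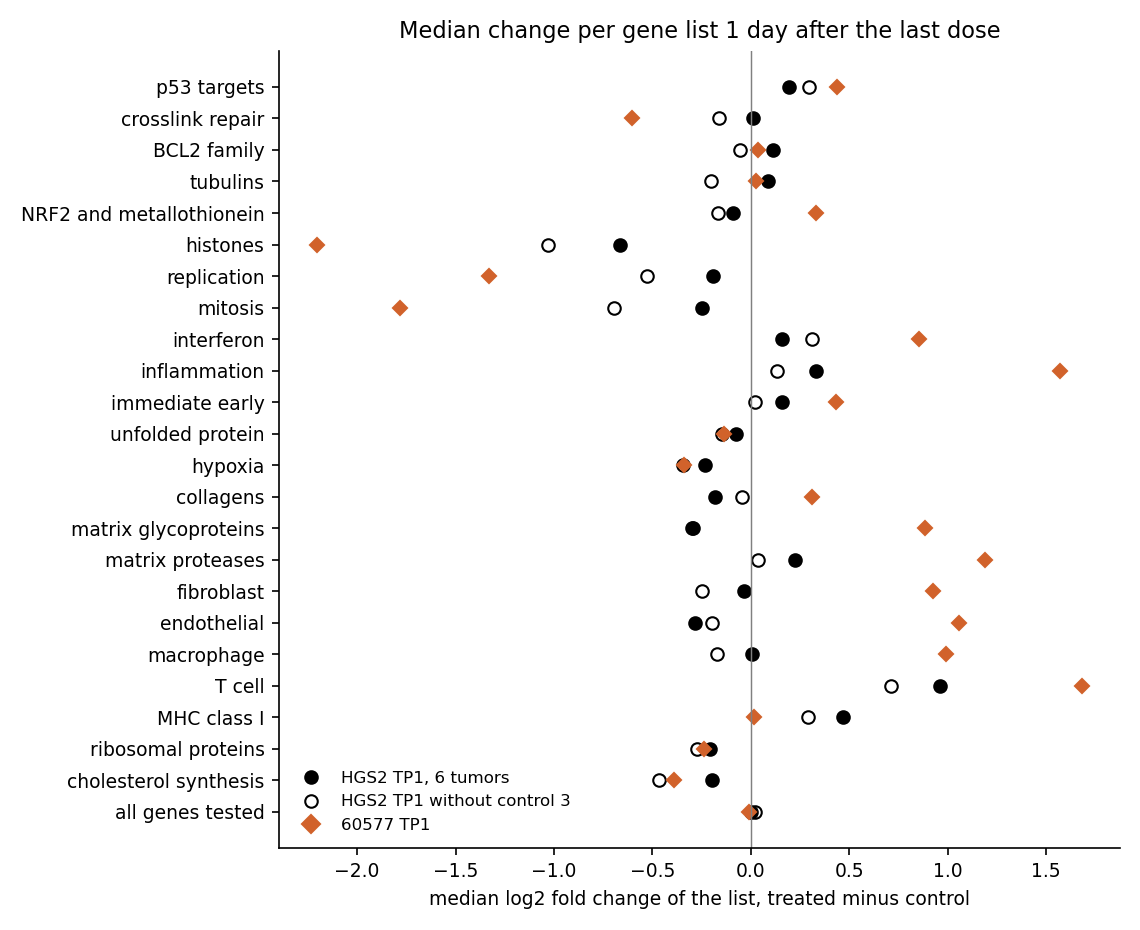
Median log2 fold change (treated minus control) of 23 gene lists and of all 16241 tested genes at TP1, for the 6 HGS2 tumors (filled circles), the same without control 3 (open circles) and 60577 (orange diamonds). Of the lists shown, the HGS2 medians lie between -0.67 for histones and 0.96 for T cell genes, whereas the 60577 medians reach -2.20 and 1.68 for the same lists. Lists with larger medians, such as B cell (2.03), adipocyte (1.56) and epithelial (-0.81) genes, are not plotted.

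Across all genes, the protein-coding genes with the smallest unadjusted p and an absolute log2 fold change above 1 were named by rule, 15 in each direction. Most of them are described here. Of the 6 tested genes of the red cell list, 4 lay wholly below the controls, beside 2.31% of all genes. These were the hemoglobin genes Hba-a1, Hba-a2, Hbb-bs and Hbb-bt, with log2 fold changes of -3.06, -2.73, -2.65 and -3.69. Control 3 held 109 CPM of Hba-a1 where the other controls held 13.2 and 14.5 CPM and treated tumors 4.00 to 6.79 CPM, and without it the log2 fold changes were -1.04 to -1.79.

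Among the 15 lower genes, Sema3a, a guidance factor for axons and vessels, stood at 145, 63.0 and 148 CPM in controls and 38.4, 50.5 and 21.1 CPM in treated tumors, a log2 fold change of -1.69 ± 0.58 (SE), or -1.53 without control 3. Cxcl14, a chemokine of fibroblasts and epithelium, stood at 22.1, 21.3 and 29.4 against 11.4, 15.8 and 8.81 CPM. Klf5, an epithelial transcription factor, stood at 5.25, 3.18 and 14.5 against 1.10, 1.72 and 1.82 CPM. All 3 genes lay wholly below the controls.

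Gap43 (a growth cone protein), Dlk1, Cda (cytidine deaminase) and Adm (the vascular peptide adrenomedullin) did not overlap either. Dlk1, a Notch family protein of preadipocytes, showed how far 1 tumor could carry a fold. It stood at 6.29, 2.25 and 145 CPM in controls and 0.495, 0.281 and 0.199 CPM in treated tumors, and its log2 fold change was -7.27, or -3.72 without control 3. Cd163 and Mgam, an intestinal glucosidase, were also highest in control 3, and without it their log2 fold changes were -0.68 and -1.14 in place of -3.31 and -2.67. Alb (albumin) and Pgc (progastricsin) stood at 7.16 and 2.15 CPM in control 3 and at no more than 0.33 CPM in any other tumor, so no fold is given for them. F2rl1, Styk1 and Bmpr1b overlapped between the groups, with log2 fold changes of -2.93, -1.42 and -1.65.

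Several of the 15 higher genes did not overlap, Cdkn1a, Tubb4a and Nr4a3, given above, among them. Tenm4, a teneurin adhesion protein, stood at 4.36, 13.8 and 7.16 CPM in controls and 17.3, 18.5 and 42.4 CPM in treated tumors, a log2 fold change of 1.62 ± 0.56 (SE). Hoxa5, a homeobox transcription factor, stood at 2.55, 4.57 and 1.69 against 10.4, 5.69 and 8.12 CPM. Klrg1, a receptor of effector T and NK cells, stood at 0.614, 0.511 and 0.655 against 1.24, 2.97 and 2.92 CPM, so every value was low.

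Abcg4, Celf5 and Yy2 were likewise at no more than 3.05 CPM in every tumor, with log2 fold changes of 1.74, 2.46 and 1.05. Mdga1, Adcy5, Ankef1, Pnma1 and Pcdhb9 overlapped between the groups. Mdga1, an adhesion molecule, stood at 29.5, 23.3 and 9.13 CPM in controls and 99.2, 47.0 and 27.1 CPM in treated tumors, with treated 3 inside the control range.

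The HGS2 and 60577 responses at TP1 differed in 235 of 16241 genes (1.45%), 73 higher (0.449%) and 162 lower (0.997%) in HGS2 minus 60577, in 1 edgeR fit of 33 tumors. The 2 contrasts share no tumor. The joint fit pools the spread of both models, and HGS2 tumors of a group spread more than 60577 tumors. In it the HGS2 TP1 contrast had 1040 genes at an unadjusted p below 0.05, against 413 in the HGS2 fit. The p-values of the differences may therefore be too small for the spread between HGS2 tumors. Of the 235, 211 were called in 60577, and 18 were at an unadjusted p below 0.05 in HGS2. Their median absolute log2 fold change was 0.23 in HGS2 and 1.67 in 60577, and in 231 the HGS2 value was the smaller. The count was 237 without control 3. It was 635 without control 1, 647 without control 2, 62 without treated 1, 378 without treated 2 and 354 without treated 3, so each of these 5 tumors moved the count by more than 1.5 times. Among the 10 genes named for the largest differences, Mgam, at -7.79 ± 1.29 (SE), and the signaling adaptor gene Srcin1, at 4.17, kept the call under all 8 alternatives. Srcin1 was low in HGS2, at 0.184, 0.991 and 0.328 CPM in controls and 2.06, 0.532 and 1.92 CPM in treated tumors, which overlapped. Of the 235 genes, 59 remained without treated 1, 159 without control 3 and 215 without control 2, so the similar count without control 3 held partly different genes.

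Most genes called in 60577 had the same sign in HGS2. Of the 1605 called there (9.88%), 1138 had the same sign in HGS2, or 70.9%. The share with the same sign over all tested genes was not computed. The 70.9% therefore does not show a trait of the called genes. The HGS2 median was 0.22 for the 1014 genes called higher in 60577 and -0.20 for the 591 called lower. Over all tested genes Pearson's r of the log2 fold changes was 0.15 (Spearman's rho 0.21), and r between HGS2 TP1 and HGS2 TP2 was 0.38 (rho 0.35). Genes are not independent replicates, and no p is given. Of the 7 gene clusters that the study formed on 60577 tumors, cluster 2 held the most genes whose response differed, 29 of 102, beside 1.45% of all genes. The clusters were built on 60577 responses, so these counts are no independent evidence of a difference. Its median was 0.17 in HGS2 and 1.93 in 60577, and 3 of its genes were higher at an unadjusted p below 0.05 in HGS2 (1.11% of all genes were), Mdm2 among them. Cluster 6 had 9 of 149 genes whose response differed, with medians of -0.13 and -1.21. Cluster 5, which holds adipocyte genes such as Plin1, had 6 of 176, with medians of 0.44 and 1.84.

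**Figure D5:**
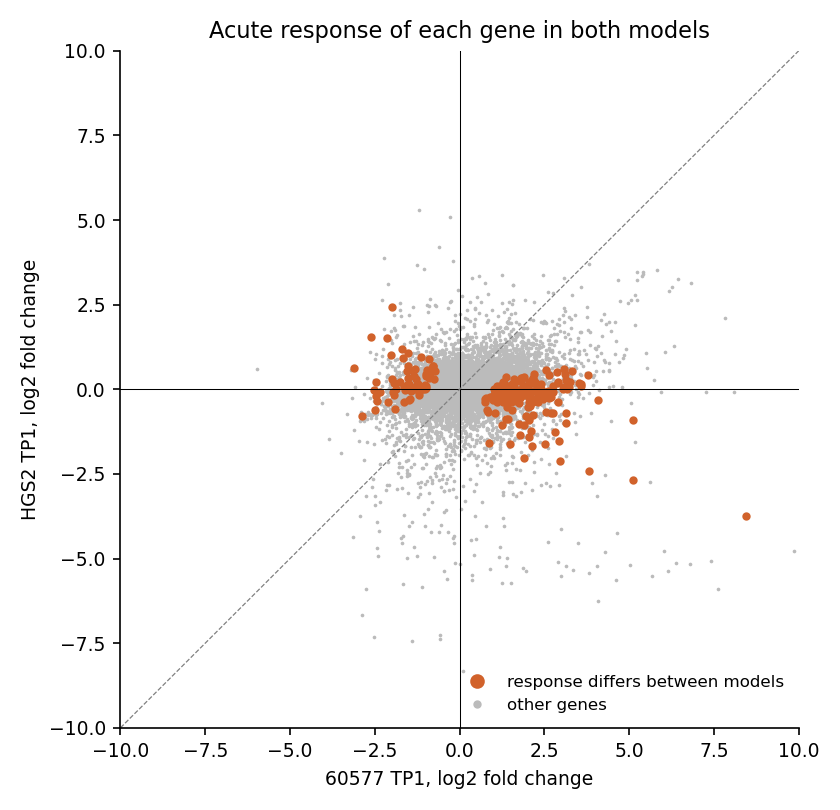
Log2 fold change at TP1 in HGS2 (vertical) against 60577 (horizontal), 1 point per tested gene from the joint fit of 33 tumors, with the line of equal response dashed and 3 of 16241 genes beyond the axes. The 235 genes whose response differed (orange) lie near 0 on the HGS2 axis for the most part, at a median absolute value of 0.23, and away from 0 on the 60577 axis, at 1.67.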

How the data were processed

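RNA was taken from snap-frozen omental tumors, depleted of ribosomal RNA and sequenced with strand-specific libraries. The authors trimmed reads with Trim Galore 0.6.5, aligned them to GRCm38 with STAR 2.7.0f and deposited RSEM expected counts per gene, which are estimates that split shared reads between genes and are not normalized. Expected counts were rounded to whole numbers here. Groups came from the sample labels, and 0 columns of per-sample values went unused. Genes with at least 1 CPM in 25% of tumors were kept (16241). The HGS2 comparison used TMM scaling and edgeR 4.0.16 (quasi-likelihood, two-sided, R 4.3.3) on 16 HGS2 tumors in 5 groups, leaving out TP3 treated replicate 1. The models were compared in 1 fit of 33 tumors. A gene was called where its Benjamini-Hochberg adjusted p was below 0.05 and its log2 fold change was past 1 in size. Log2 CPM used a prior count of 2, and CPM carries TMM scaling unless stated. The p-values of the HGS2 comparison measure the spread between mice sharing 1 cell line. Those of the comparison of models pool the spread between mice of both lines.

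Genes were named by rule: called genes first, then the 15 protein-coding genes of smallest unadjusted p in each direction with an absolute log2 fold change above 1, members of the gene lists, 7 further genes fixed with the rule and the 10 largest differences between responses. The members and lists were chosen with earlier results of these data known. Some named genes are not reported here. Lists got no test. Alternatives were DESeq2 1.42.0, limma 3.58.1 (voom), other filters, scalings, covariates and samples, a replicate block and leaving out each tumor. The scripts were tested on simulated data. Library totals bound counting error only.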

Additional observations from a re-analysis of the deposited data

Results flagged for a closer look

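The response of HGS2 at TP1 differed from that of 60577 at TP1 in 235 genes, by the edgeR test of the difference itself. The values below are HGS2 minus 60577 on the log2 scale, for the genes that the naming rule covers. Among fibroblast, matrix and TGF-beta genes they were -2.25 for Pdgfra, -2.29 for Cthrc1, -2.06 for Col3a1, -1.5 for Col5a1, -2.36 for Mmp19, -1.75 for Tgfbr3, -3.34 for Fst and -1.51 for Id2. Among immune genes they were -2.65 for Cxcl12, -2.80 for Cxcl14, -6.00 for Acod1, -1.42 for Trem2, -2.89 for Folr2 and -1.72 for C5ar1.

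Growth genes had positive differences, since they fell in 60577. These were 1.74 for Mcm6, 1.46 for Cdt1, 1.29 for Pola2, 2.27 for Cenpf, 2.09 for Ect2 and 1.39 for Brca2. The histone genes Hist1h2ak, Hist1h4j and Hist3h2a gave 2.09, 1.88 and 1.25. The p53 targets Rap2b and Dcxr gave -1.35 and -1.82. The transporter Abcc4 gave -1.28, the NRF2 targets Srxn1 and Slc7a11 gave -1.77 and -4.39, and the clock gene Nr1d1 gave -2.22.

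The remaining genes were named for the size of the difference. They were Mgam (-7.79), Npy (-12.19), Lrrc17 (-6.21), L1cam (-5.06), Gm42517 (-4.46), Klhdc7b (4.40), Srcin1 (4.17) and Thsd7a (-4.16). Of the 37 named genes, 8 kept the call under all 8 alternatives, and 29 lost it without treated 1. Over the alternatives Npy ranged from -12.76 to -7.01 and kept the call in 4 of 8, L1cam from -5.59 to -2.13 in 5 of 8, Gm42517 from -4.93 to -2.71 in 6 of 8 and Klhdc7b from 2.98 to 5.18 in 4 of 8. Klhdc7b was low in HGS2, at 0, 0.120 and 0.234 CPM in controls and 1.35, 0.281 and 0.166 CPM in treated tumors. Groups of 3 tumors were too small for a search for single outlying values.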

How the results depend on the processing

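Between treated and control HGS2 tumors at TP1, 0 genes were called under every alternative except the DESeq2 Wald test, which called 1. The counts without filter (30495 genes) and with filterByExpr (18706 genes) were 0. The smallest adjusted p over the edgeR and limma alternatives was 0.241, with limma-voom sample weights, which together with 3 fits without control 3 was chosen after seeing the data. Replicate numbers are not stated to pair the tumors. The deviations of same-numbered tumors correlated at -0.16, -0.28 and 0.09, which in groups of 3 can neither show nor exclude a pairing. The replicate block called 0 genes, also with a length and GC offset. The difference from the HGS2 TP2 response stayed at 0 calls under its alternatives. The count of genes differing from 60577 ranged from 62 to 647 when 1 tumor was left out, was 274 with DESeq2 size factors and 214 with limma-voom. The distance between groups minus that within groups ranged from -0.0265 to 0.01 when 1 tumor was left out, positive without control 1 (0.00477) and without control 2 (0.01). A further count covered the 74 named genes at an unadjusted p below 0.05 or with groups that did not overlap. Of their 1701 recomputed log2 fold changes, 2 changed sign. Both were for the claudin gene Cldn3, at 0.002 without control 3 (leaving out 1 tumor gave -5.095 to 0.002) and 0.009 in the joint fit without it. Genes picked in this way can hardly change sign when 1 tumor is left out, so this count is no evidence of stability. Over the 98 tested genes named for the TP1 comparison, 94 of 2253 recomputed values had another sign, in 24 genes. Without control 3 the sign changed in 9 of these, Cldn3 included, to -0.23 for Cdt1, -0.16 for Pola2, 0.17 for Col1a1, -0.30 for Vcan, 0.68 for Epcam, -0.02 for Trem2, 4.27 for Cela2a and 0.51 for Rn7s1. Without control 1 it changed in 8, to 0.41 for Mki67, 0.43 for Pcna, 0.34 for Mcm6, 0.60 for Cenpf, 0.23 for Ect2, 0.28 for Brca2, 0.28 for Abcb1b and -0.12 for Phlda3. Of 513 recomputed list medians, 11 moved by more than the spread. The cause of these changes was not tested.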

Other observations

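Other gene groups at HGS2 TP1 also gave 0 calls with edgeR. MHC class I presentation genes had positive log2 fold changes in 16 of 16 members, with a median of 0.47 (0.29 without control 3), and 0 were past an unadjusted p of 0.05. MHC class II genes were positive in 10 of 10, with a median of 0.51 (0.14 without control 3), and their sum ranged from 1639.5 to 5196 CPM in controls and 2748 to 7656 CPM in treated tumors, which overlapped. Nuclear-encoded respiratory chain genes had a median of -0.06 over 73 genes, and 12 mitochondrially encoded genes one of 0.06.

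Among circadian clock genes 1 of 18 was lower at an unadjusted p below 0.05, beside 1.43% of all genes. This was Clock itself, with a log2 fold change of -0.34. Glucocorticoid-responsive genes had a median of -0.35 over 15 genes, and 0.10 without control 3. Neutrophil genes summed to 598 CPM in treated 2 and to 59.6 to 261 CPM in the other 5 tumors.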
